A study of Drosophila melanogaster with 2 samples.

Results

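Single-gene promoter peaks whose summit lies upstream of the start numbered 1202 of the 3592 peaks (33.5%) of the conservative set on the chromosome arms. A peak was taken when its summit, the position of highest enrichment, lay 1 to 500 bp upstream of the nearest protein-coding transcript start, read along the gene's strand. A start was left out when a coding gene on the opposite strand began within 1000 bp of it and pointed away, since such divergent promoters serve a pair of genes. The rule used positions of summits and starts and no signal. By the same limits, 416 summits lay at or downstream of a single-gene start, 1468 at divergent promoters and 506 at no coding start. The peaks were spread over arm X with 227, 2L with 203, 2R with 261, 3L with 252, 3R with 253 and chromosome 4 with 6.

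The peaks came from chromatin immunoprecipitation and sequencing of whole Drosophila melanogaster embryos of 0 to 18 h that carried a transgene for hbn-eGFP, the homeobrain protein fused to green fluorescent protein, and the only group held 2 biological replicates. The precipitation was directed at GFP per the sample descriptions, while the antibody field names hbn, and chromatin was sonicated to 200 to 800 bp. The labels mention a control experiment, which was not analysed here, so no peak could be compared with embryos lacking the tag. The pooled ages and whole embryos do not separate the cells that make the protein from those that do not, and chromatin gives no marker levels by which to check the tissue. The depth of either library is unknown.

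A promoter is the stretch around the start of a gene where RNA polymerase and its general factors assemble. In flies, promoters of genes that most cells use often hold the DNA replication-related element (DRE), whose palindrome TATCGATA binds the factor DREF, or motif 1, a sequence around GGTCACAC bound by M1BP. Many promoters of developmentally regulated genes hold GAGA-type repeats bound by the Trithorax-like (Trl) protein and recruit polymerase that pauses after the start. The homeobrain gene encodes a paired-like homeodomain factor, a class that binds TAAT-type sequences such as TAATTA.

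The sequences that recurred at the strongest of these peaks are shown first, because the signal of the peaks went with them. Each line gives 29 or 30 bases on the gene's strand, 5′ to 3′, upstream of the start and between annotated genes, from the RefSeq copy of the Release 6 assembly (dm6). Capitals mark TATCGA on either strand in the first 9 lines, where its reverse complement reads TCGATA and the full palindrome TATCGATA is in capitals where present.
mtSSB: tcgtaaatatcaTCGATAcaTCGATAtttt
RhoGAP93B: atatagtaaactTCGATAttgataacttag
Nrg: aagagttacaaaTATCGATAagagcgtagg
Jwa: catttgtaccTATCGATAgctcatggtgat
CG4502: aatcgattaactTCGATAgcaaaaatcgaa
Snx27: agcaccgatagcTATCGAttaacggccagc
Scsalpha1: tcgcagctaaaaTATCGAtggtgtgtcgta
Spn: attcaccgatagTATCGAatagtcgtctcc
CG6325: attttgttctTATCGATAactaatgctact
The next 3 lines show strong peaks named for other reasons. CG17129 and TTLL4A had no TATCGA within 100 bp of the summit, and capitals mark a match to GTATNTTT (core of motif 6) in the one and to CAGCTG (an E-box) in the other. ArfGAP1 had TATCGATA elsewhere in its window, and capitals mark GGTCACAC.
CG17129: ttaagttttagGTATGTTTggttgttgttt
TTLL4A: ctatcggccgaaCAGCTGgtgcgtgcgcaa
ArfGAP1: agttgcactttGGTCACACtgcaaaacaaa
The last 3 lines come from peaks at genes of embryonic patterning, shown for contrast and chosen after their values were seen. Capitals mark GAGAG or, on the other strand, CTCTC.
abd-A: gcgggaaaGAGAGAGAGaacagcggcggt
btd: ggtgccGAGAGcGAGAGAGAGcGAGAGct
Ptx1: ctgcacaggcagCTCTCgctactcgtcgg

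The first 9 lines belong to 9 of the 20 strongest peaks, and the last 3 to peaks with signals of 57.1 to 105. The windows lay at chr3R:16205252-16205281 (minus strand) for mtSSB, chr3R:21097879-21097908 (minus) for RhoGAP93B, chrX:8517205-8517234 (plus) for Nrg and chr2L:18705888-18705917 (minus) for Jwa. Those of CG4502, Snx27 and Scsalpha1 lay at chr2L:7204306-7204335 (minus), chrX:5738062-5738091 (minus) and chr3L:3814153-3814182 (plus). Those of Spn and CG6325 lay at chr3L:2554333-2554362 and chr3R:10407324-10407353, both on the minus strand. The window of CG17129 lay at chr3L:680391-680420 (minus), that of TTLL4A at chr2L:10989339-10989368 (plus) and that of ArfGAP1 at chr3L:12417651-12417680 (minus). The patterning genes' windows lay at chr3R:16830222-16830250 (minus) for abd-A, chrX:9694009-9694037 (plus) for btd and chr3R:30912608-30912636 (plus) for Ptx1.

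Summits lay close to the start. Their median distance was 64 bp upstream (quartiles 31 and 135), and 484 summits were within 50 bp, 313 at 51 to 100 bp, 242 beyond 100 and up to 200 bp, and 163 farther out. In peaks called from 1 replicate alone the summit mostly lay on the same side. This is a description only, since the same replicates made the conservative set, whose summit positions the rule used. Of the 941 peaks that overlapped replicate 1's own set, 903 had that replicate's summit upstream of the same start (96.0%, Wilson 95% interval 94.5 to 97.0), and in replicate 2 it was 689 of 744 (92.6%, 90.5 to 94.3). The median shift between summits was 12 bp in replicate 1 and 16 bp in replicate 2.

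**Figure D1:**
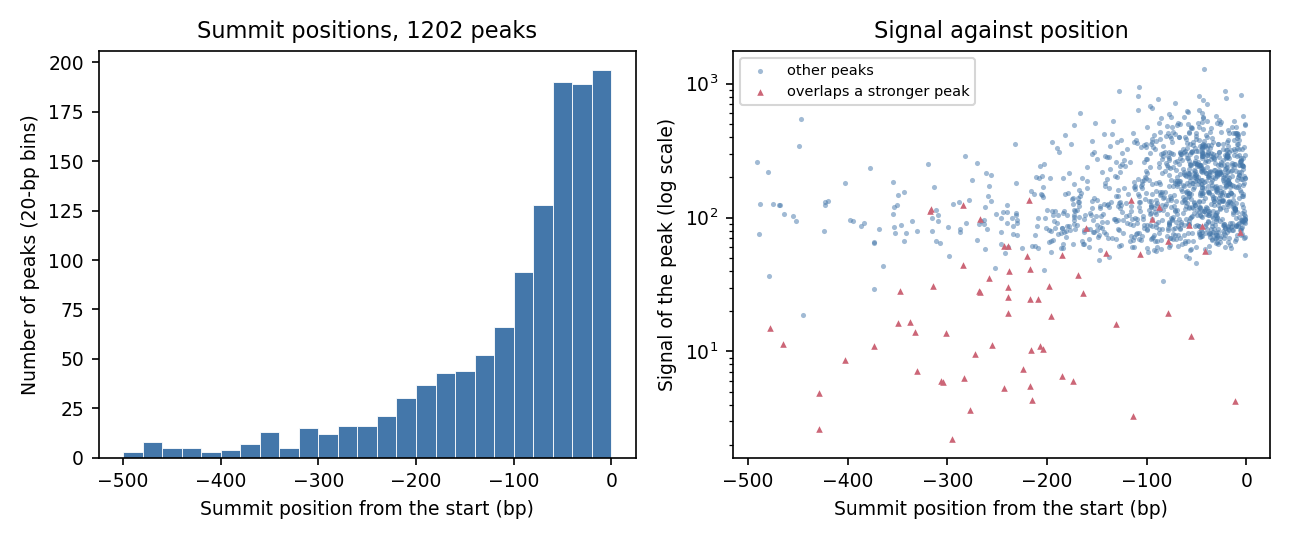
Left, number of the 1202 peaks by summit position in 20-bp bins, with the start at 0 and negative values upstream. Right, the deposited signal of each peak (log scale) against the same position, with triangles for the 69 peaks that overlap a stronger peak of the same set. Summits pile up within 100 bp of the start, and most signals under 20 belong to triangles.

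The nearest genes numbered 1107, at 1147 distinct start positions. At 90 genes there was more than 1 such peak, together 185 peaks, so the peaks are not independent of each other. The gene kis, a chromatin remodeller of the CHD family, had 4, and Top1 (a topoisomerase), subdued and Idh (isocitrate dehydrogenase) had 3 each. At 24 peaks several genes share the exact start position. At 1008 of the 1202 (83.9%) no other gene, coding or not, had a start within 1000 bp. That share is partly set by the rule, which had already removed starts with a divergent coding gene in this range. A non-coding gene began within 1000 bp at 144 (11.98%), against 9.21% of all peaks, and 112 summits (9.32%) lay inside another coding gene, against 8.18%. At divergent peaks these shares were 4.90% and 5.18% (odds ratios 2.64 and 1.88, Fisher's exact adjusted p = 1.16e-10 and 9.86e-05). At downstream peaks they were 10.1% and 7.21%, and neither difference was called (Fisher's exact adjusted p = 0.374 and 0.303). In 262 cases the summit lay inside its own gene, upstream of an internal start.

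At the edges of the rule, the peak farthest upstream was at CG12316 (491 bp, signal 259), followed by AttD, an attacin gene of the antibacterial response (489 bp, signal 75.9). Just beyond 500 bp lay peaks of RpL12 (502 bp, signal 64.6) and CG2747 (514 bp, signal 80.9). Peaks 1 bp upstream were those of CG9135 and CG4853, with signals of 497 and 493, and those with the summit on the start itself, left out, were CG7115 (296) and Srrm1 (295). For the opposite start, raptor, a subunit of the TOR complex, was kept with its peaks of 117 and 4.35. Left out were Yod1 (172) and CG32767 (207), whose opposite starts lay within 1000 bp.

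The signal, the peak caller's deposited enrichment value whose scale is not stated, had a median of 135 (quartiles 87.9 and 243, range 2.21 to 1280). At or above the median of all peaks, a level that 50% of them reach by construction, were 697 of the 1202 (58.0%, 55.2 to 60.7). Among downstream single-gene peaks it was 114 of 416 (27.4%), which gave an odds ratio of 3.66 (95% Woolf interval 2.86 to 4.67, 2-sided Fisher's exact test, adjusted p = 4.21e-27 over 2 comparisons). Divergent peaks, at 59.7%, could not be told apart (odds ratio 0.93, 0.80 to 1.09, Fisher's exact adjusted p = 0.385). That comparison depended on the weak overlapping entries described next: without them the odds ratio was 0.77 (Fisher's exact adjusted p = 0.00142), and at an IDR of 0.001 it was 1.39 (adjusted p = 0.00109). The odds ratio against downstream peaks was smaller but still called, at 2.87 without such entries (Fisher's exact adjusted p = 1.48e-15) and 2.56 at that IDR (adjusted p = 5.76e-07). IDR, the irreproducible discovery rate, measures whether a peak keeps its rank between replicates.

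Some of the weakest entries overlapped stronger peaks. Of the 1202, 69 (5.74%) overlapped a stronger peak of the same set, with summits a median of 204 bp apart, and 59 of these shared their nearest start with it. Their median signal was 24.7, against 147 for the other 1133. The 3 weakest of all were such entries, at Csk (signal 2.21), Roc1a (2.64) and TpnC73F (3.29). They made up 28.2% of the summits more than 200 bp upstream and 0.826% of those within 50 bp.

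The signal of each replicate was available for most of the peaks. Replicate 1's signal had a median of 92.2 over the 1137 peaks with an entry within 100 bp of the summit, and replicate 2's a median of 55.9 over 1101. Over the 1073 with both, Pearson's r of the log2 signals was 0.88 and Spearman's rho 0.87, as a description, since every point shares the libraries and the conservative set was itself chosen by agreement of rank between the replicates. Replicate 1 was the higher in 1000 of them, by a median ratio of 1.63, and with the depth unknown that offset has no further reading.

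**Figure D2:**
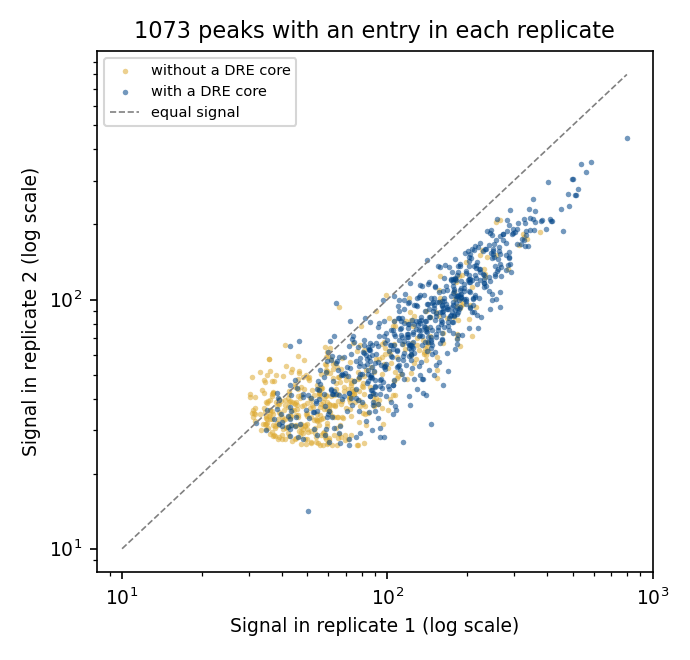
Signal in replicate 1 against signal in replicate 2 for the 1073 peaks with an entry in each, both axes on a log scale, with peaks that hold TATCGA (the DRE core) in blue and those without it in yellow. Most points lie below the line of equal signal, and blue points fill the upper end.

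Presence in the sets called from 1 replicate alone lay between the neighbouring kinds of promoter peak. Replicate 1's own set held 941 of the 1202 (78.3%, 75.9 to 80.5), where it held 75.5% of all peaks, 63.7% of downstream and 85.6% of divergent ones. Replicate 2's own set held 744 (61.9%, 59.1 to 64.6), against 58.4% of all, 46.2% of downstream and 68.5% of divergent ones. Against downstream peaks the odds ratios were 2.05 (1.61 to 2.62) and 1.90 (1.51 to 2.37), with adjusted p = 4.38e-08 and 5.77e-08 by 2-sided Fisher's exact tests over 4 comparisons. Against divergent peaks they were 0.61 (0.50 to 0.74) and 0.75 (0.64 to 0.88), with Fisher's exact adjusted p = 1.23e-06 and 0.000368. When a peak counted as shared only with summits within 100 bp, the difference from divergent peaks was no longer called (0.89 and 0.98, Fisher's exact adjusted p = 0.278 and 0.813). Both own sets held 698 of the 1202, and neither held 215.

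The strongest peaks stood at genes of varied function, and all of the 20 strongest held TATCGA within 100 bp of the summit. mtSSB, the mitochondrial single-stranded DNA-binding protein and a described DREF target in flies, was first with signals of 803 in replicate 1, 446 in replicate 2 and 1280 in the conservative set, 42 bp upstream. RhoGAP93B, a GTPase-activating protein, had 588, 355 and 946, at 108 bp. Pym, a partner of the exon junction complex, had 537, 348 and 888, at 21 bp. Nrg, the L1-type adhesion molecule neuroglian, had 559, 326 and 876, at 128 bp. In each of these replicate 1 had the higher signal. The 20 were taken among peaks held by both own sets, so that presence was fixed by the choice.

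The rest of the 20 ranged from 828 at CG8613 down to 600 at CG6325. They included Jwa (814), Creld (781), Capr, an RNA-binding caprin (722), Snx27, a sorting nexin (700), and Oatp30B, an organic anion transporter (685). Further down were Hacl, 2-hydroxyacyl-CoA lyase (632), Scsalpha1, a subunit of succinyl-CoA synthetase (630), Spn, spinophilin (611), and bun, of the TSC-22 family (606). CG4502 (802), CG11857 (774), CG2924 (750), Gp150 (657) and CG13096 (625) complete them.

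**Figure D3:**
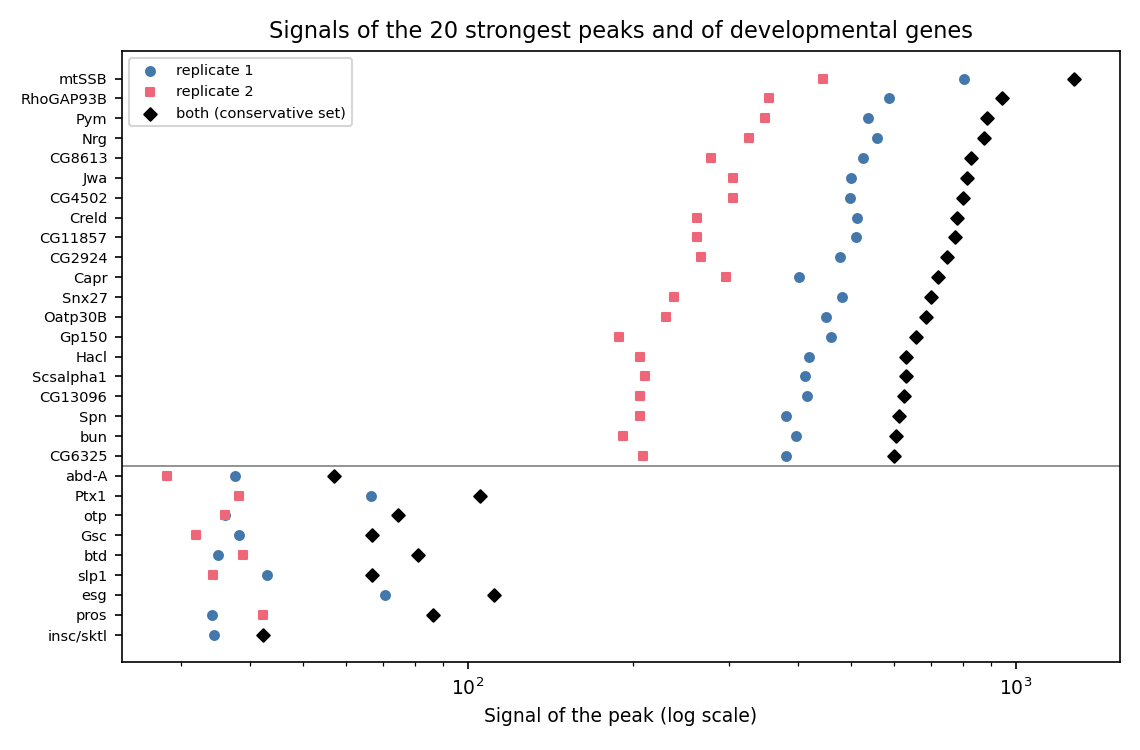
Signal (log scale) of the 20 strongest peaks, above the line, and of 9 peaks at genes of the developmental lists, below it, in replicate 1 (circles), replicate 2 (squares) and the conservative set (diamonds). A missing mark means no entry within 100 bp in that replicate. The strongest peaks run from 600 to 1280 in the conservative set and the developmental ones from 42.2, at insc and sktl alike, to 112.

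TATCGA was common near the summit. It was found within 100 bp of 653 of the 1202 summits (54.3%, 51.5 to 57.1), where 48.5% of all conservative peaks had it, and the palindrome TATCGATA of 310 (25.8%, 23.4 to 28.3), against 21.9% of all. In windows of the same width at the 11435 single-gene starts with no peak within 500 bp, centred 64 bp upstream, the shares were 10.1% and 1.45%. Over windows at all 19276 coding start positions they were 20.8% and 6.83%. Of the other 8-base forms TATCGATT was the most frequent, in 184 peaks, followed by TATCGATG in 151.

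Counted from the gene's side, 374 of the 540 single-gene starts with TATCGATA in the window had a peak within 500 bp (69.3%, 65.2 to 73.0), against 11.3% of the 12700 without it. For TATCGA it was 42.2% of 1992 against 8.57% of 11248. Of the 1100 matches to TATCGA in these windows, 511 (46.5%) centred within 25 bp of the summit, a stretch that holds 25.5% of the possible positions. Relative to the summit the quartiles were -25.5 and 29.5, and relative to the start the median position was -46.5 (quartiles -75.5 and -20.5). Overlapping matches, such as those on both strands of the palindrome, were counted once.

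**Figure D4:**
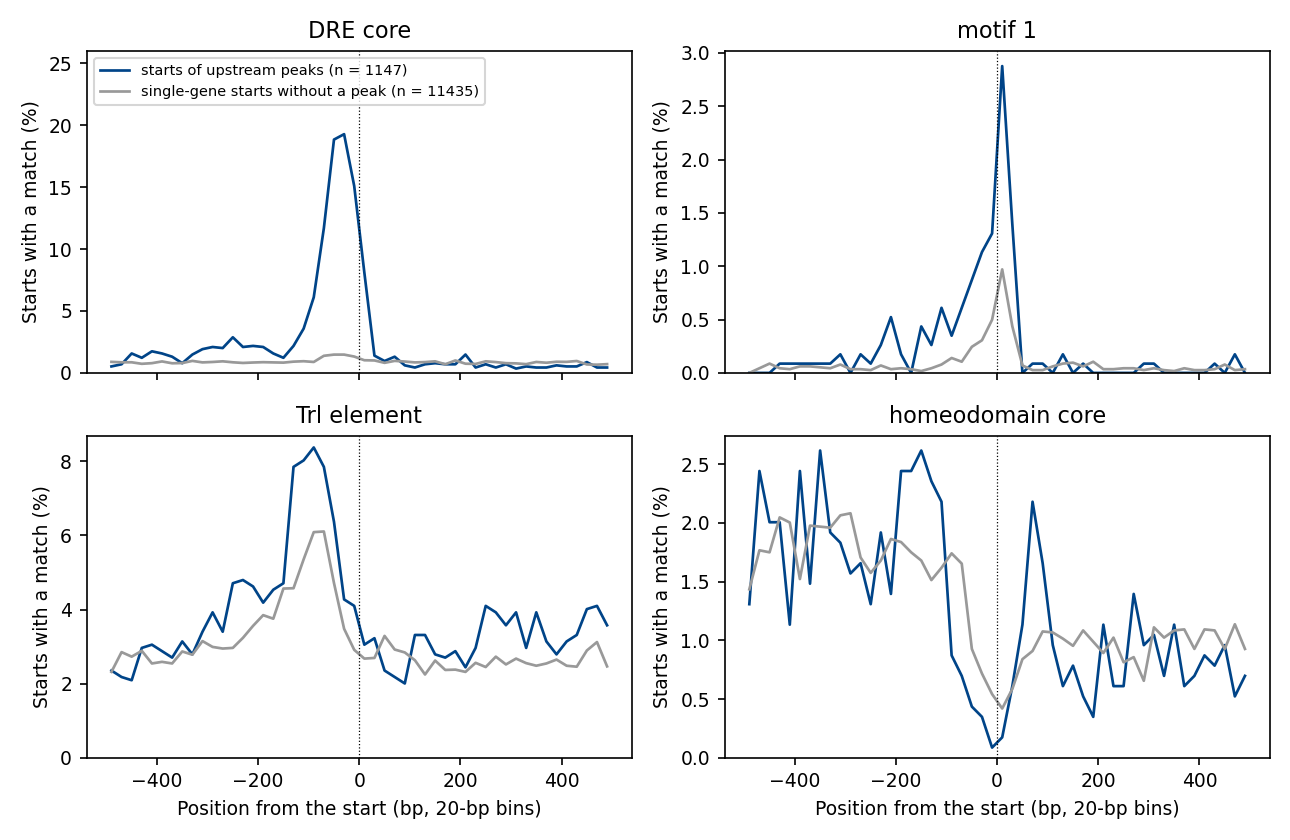
Share of starts with a match centred in each 20-bp bin from 500 bp before to 500 bp after the start, for the 1147 starts of these peaks (blue) and the 11435 single-gene starts without a peak (grey); the panels show TATCGA (DRE core), GGTCACAC (motif 1), GAGAG (Trl element) and TAATTA (homeodomain core), each with its own vertical scale. The DRE core reaches 19.3% in the bin centred 30 bp before the start, against 1.48% at starts without a peak.

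Against downstream single-gene peaks TATCGA was more frequent (54.3% against 32.9%, odds ratio 2.42, 1.92 to 3.06, adjusted p = 5.38e-13 by 2-sided Fisher's exact tests over 26 comparisons), and so was TATCGATA (25.8% against 13.9%, odds ratio 2.15, 1.58 to 2.91, adjusted p = 2.75e-06). Windows were centred on summits, and the rule fixed on which side of the start these lie. For every motif the windows of upstream and downstream peaks thus cover different stretches around the start. The odds ratio of TATCGA was 3.17 with windows of 50 bp to each side and 1.59 with 200 bp. Without peaks that overlap a stronger one it was 1.88 (Fisher's exact adjusted p = 1.08e-05). How far the difference rests on the position of the windows was not tested. Against divergent peaks TATCGA was slightly less frequent (59.3% there, odds ratio 0.82, 0.70 to 0.95, Fisher's exact adjusted p = 0.0231), but the direction turned with the window: within 50 bp of the summit the odds ratio was 1.23 (adjusted p = 0.0225). It also turned, uncalled, in replicate 2's own set (1.09, Fisher's exact adjusted p = 0.600) and at an IDR of 0.001 (1.07, adjusted p = 0.702), and it was not called in replicate 1's own set (0.97, adjusted p = 0.880). TATCGATA did not differ detectably (26.2%, odds ratio 0.98, 0.82 to 1.17, Fisher's exact adjusted p = 0.894).

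The signal was higher where the element was present. Peaks with TATCGA had a median signal of 204 (quartiles 133 and 304) and those without it 91.7 (71.4 and 128). The same order held within each replicate, at 133 against 58.8 in replicate 1 and 76.0 against 40.7 in replicate 2. By number of matches, the median was 91.7 for the 549 peaks with none, 174 for 317 with 1, 211 for 243 with 2, and 288 for 93 with 3 or more. Spearman's rho between the number of matches and the signal was 0.54 over 1202 peaks, as a description.

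In 5 groups of equal size, ordered by signal, TATCGA went from 16.6% in the weakest through 28.6%, 62.9% and 77.9% to 85.8% in the strongest. Downstream peaks, divided likewise, went from 7.14% to 78.3% and divergent ones from 20.7% to 76.8%. GAGAG ran the other way, from 50.2% through 46.1%, 27.9% and 17.5% to 13.3%. In the weakest group 24.1% of the peaks overlapped a stronger one.

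**Figure D5:**
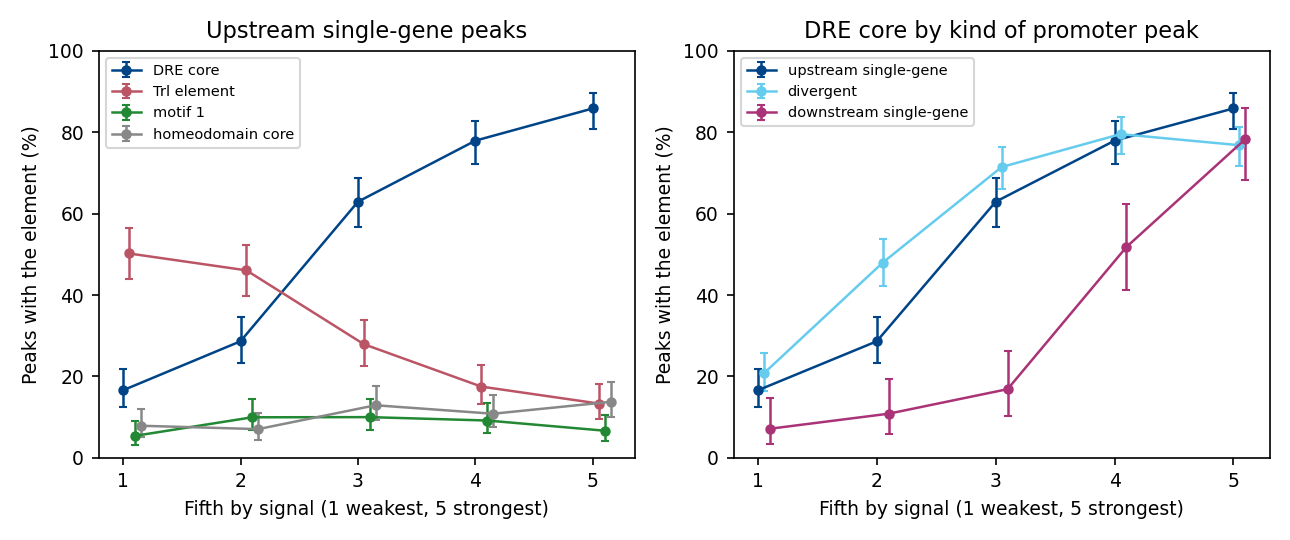
Share of peaks with an element (points, with Wilson 95% intervals) in 5 equal groups by signal. Left, the DRE core (TATCGA), the Trl element (GAGAG), motif 1 (GGTCACAC) and the homeodomain core (TAATTA) in the 1202 peaks; right, the DRE core in the 3 kinds of promoter peak. On the left the DRE core and the Trl element cross between the second and the third group.

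GAGAG was found at 373 of the 1202 peaks (31.0%, 28.5 to 33.7), where 26.1% of all peaks had it. That is near the 28.8% of single-gene starts without a peak. It was more frequent than at divergent peaks (15.7%, odds ratio 2.41, 2.00 to 2.90, Fisher's exact adjusted p = 1.94e-19). It was also more frequent than at downstream peaks (22.8%, odds ratio 1.52, 1.17 to 1.97, Fisher's exact adjusted p = 0.00397), although in replicate 1's own set that odds ratio was 1.08 (adjusted p = 0.869) and with windows of 200 bp to each side 1.14 (adjusted p = 0.343). The matches lay farther out than those of TATCGA, at a median position of -108 from the start.

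The 2 elements seldom met. Both were present at 110 peaks, TATCGA alone at 543, GAGAG alone at 263 and neither at 286. Median signals were 184, 209, 85.9 and 98.6 in that order, so peaks with GAGAG and TATCGA were close to those with TATCGA alone. Peaks with TATCGA had their summit a median of 48 bp upstream and those without it 103 bp, while peaks with GAGAG had it at 96 bp and those without at 55 bp.

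Distance, signal and element moved together. Over the same 4 bins of distance, from the nearest to the farthest, the median signal went from 175 to 157, 112 and 86.9. TATCGA went from 70.9% to 58.1%, 31.4% and 31.9%, and GAGAG from 19.4% to 32.3%, 47.5% and 38.7%. Without the 69 overlapping entries the median signals were 176, 164, 118 and 99.3. The part of each in the others was not tested.

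Motif 1 was rare. GGTCACAC was found at 99 peaks (8.24%, 6.81 to 9.93), where 7.27% of all peaks, 5.83% of all coding starts and 2.65% of single-gene starts without a peak had it. The odds ratio was 1.35 (0.86 to 2.11, Fisher's exact adjusted p = 0.310) against downstream and 0.94 (0.71 to 1.24, adjusted p = 0.764) against divergent peaks. By signal its share was 5.39% in the weakest of the 5 groups, then 9.96%, 10% and 9.17%, and 6.67% in the strongest, with Wilson intervals that overlapped. It had a direction, with 72 of its matches on the gene's strand (71.3%, 61.8 to 79.2), and lay at a median position of -20.5. The strongest peaks with it were CrebB, the CREB-type factor (502), spin, a lysosomal membrane transporter (478), ArfGAP1, a regulator of Golgi traffic (474), Odj (451) and CG2852 (436), and each also held TATCGA.

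Among the other promoter elements, CATCNCTA, part of motif 7, was found at 146 peaks (12.1%), near the 11.5% of all peaks. The share was 5.77% at downstream peaks (odds ratio 2.26, 1.44 to 3.53, Fisher's exact adjusted p = 0.000805) and 1.59% at single-gene starts without a peak. At divergent peaks it was 14.9% (Fisher's exact adjusted p = 0.0911). On the gene's strand were 82.3% of its matches, and the median signal was 239 with it and 126 without it. The TATA-type TATAAA was found at 23.6%, near the 24.5% of all peaks, below the 29.4% of divergent peaks (odds ratio 0.74, Fisher's exact adjusted p = 0.00273) and above the 16.6% of downstream ones (1.56, adjusted p = 0.00635). The 30.01% at starts without a peak was higher than either single-gene share.

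Within 100 bp of the summit, the sequences that homeodomains bind were no more frequent than in windows at starts without a peak. Those windows were centred 64 bp upstream of the start. TAATTA was found at 126 peaks (10.5%), where 11.4% of all peaks and 10.5% of single-gene starts without a peak had it. TAATTG was found at 155 (12.9%), where the shares were 15.8% and 14.9%. Both were rarer than at divergent peaks (13.8% and 19.2%, odds ratios 0.73 and 0.62, Fisher's exact adjusted p = 0.0217 and 7.93e-05). Against downstream peaks (8.89% and 13.7%) neither was called, with odds ratios of 1.2 (0.82 to 1.76) and 0.93 (0.67 to 1.29) and Fisher's exact adjusted p = 0.541 and 0.764. By signal, TAATTA was at 7.88% in the weakest of the 5 groups, then 7.05%, 12.9% and 10.8%, and 13.8% in the strongest, with Wilson intervals that overlapped. TAATCC, the form that bicoid-type homeodomains prefer, was found at 31 (2.58%), against 4.7% of all peaks and 5.71% of single-gene starts without a peak. That was fewer than at downstream (6.49%, odds ratio 0.38, Fisher's exact adjusted p = 0.00219) and divergent peaks (5.93%, odds ratio 0.42, adjusted p = 0.000133). Close to the start TAATTA was rare with or without a peak: the bin centred 10 bp before it held a match at 1 of 1147 starts with such a peak (0.087%) and at 0.54% of starts without one. In the bin centred 90 bp before the start the shares were 0.87% and 1.74%. Farther out the order was the other way. In the bins centred 190 to 110 bp before the start they were 2.18% to 2.62% with such a peak and 1.51% to 1.84% without one. These bins were picked after the values were seen, and the difference was not tested. A match is a string of letters, and its absence from a window says nothing about where the protein binds.

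Strong peaks without TATCGA were few. The 5 strongest were CG17129 (549), Epg5, an autophagy factor (510), TTLL4A, of the tubulin tyrosine ligase-like family (510), CkIalpha, casein kinase I alpha (499), and Coq7, of coenzyme Q synthesis (478), all present in each replicate's own set. They shared no single other element: CG17129 had GTATNTTT and GAGAG, Epg5 had GAGAG besides the TATA and homeodomain cores, TTLL4A had the E-box, Coq7 the TATA core, and CkIalpha only TCAGT, the core of the initiator. Of all 1202, 115 held none of the 8 promoter elements sought, with a median signal of 91.9.

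The position of the gene behind the promoter also went with the signal. At 602 of the 1202 starts (50.1%) a coding gene of the same strand ended within 1000 bp upstream, a median of 314 bp away. All peaks had such a gene in 28.7% of cases, downstream ones in 56.5% (odds ratio 0.77, 0.62 to 0.97, adjusted p = 0.0422 by 2-sided Fisher's exact tests over 8 comparisons) and divergent ones in 5.79% (odds ratio 16.3, 12.8 to 20.9, Fisher's exact adjusted p = 3.00e-159). The divergent contrast was largely set by the rule, because there a gene of the opposite strand already starts within the same 1000 bp. The share over all peaks includes those divergent ones, so neither is a finding about these peaks. These head-to-tail starts, a division chosen after the values were seen, had a median signal of 188, TATCGA at 70.9% and GAGAG at 17.8%. The other 600 had a median signal of 106, TATCGA at 37.7% and GAGAG at 44.3%. Among peaks that hold TATCGA the median signals were 217 and 172.

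Genes of general cell function were found among the nearest genes in moderate numbers. Of all 13968 coding genes, 1129 (8.08%) had such a peak at a start and 26.5% had any conservative summit within 500 bp of a start. Of 93 cytosolic ribosomal protein genes 12 had such a peak, of 73 mitochondrial ribosomal protein genes 2, of 48 proteasome genes 6, of 86 respiratory chain genes 12, of 54 translation factor genes 9 and of 35 aminoacyl-tRNA synthetase genes 3. The Wilson interval lay above 8.08% for the translation factors (9.02% to 28.7%) and, narrowly, the respiratory chain genes (8.17% to 22.8%). For each of the other lists named here it held 8.08%. Divergent starts, which the rule removes, were present at 56 of the 93 cytosolic and 58 of the 73 mitochondrial ribosomal protein genes, and at 36.2% of all coding genes.

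The 44 genes of these 6 lists with such a peak had a median signal of 188 (37.0 to 561). At their strongest peak 32 held TATCGA (72.7%) and 21 TATCGATA (47.7%), 10 held GGTCACAC (22.7%) and 1 held GAGAG (2.27%). Over all 1202 peaks the shares were 54.3%, 25.8%, 8.24% and 31.0% in that order. Only the strongest peak of each gene was counted here, and TATCGA was more frequent at stronger peaks. RpS2, of the small ribosomal subunit, had signals of 361, 204 and 561 in replicate 1, replicate 2 and the conservative set, and its peak lay 43 bp upstream. The translation initiation subunit eIF3f1 had 328, 210 and 532, and the mitochondrial mRpL10 222, 132 and 351. RpS29 reached 429, RpS30 423, eEF1gamma 312, beta-PheRS 297, ND-B14.5A 294 and Rpn12 256 in the conservative set.

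Genes of replication and the cell cycle were counted beside the 8.08% of all coding genes with such a peak. Of 10 genes described as DREF targets in flies 5 had such a peak: mtSSB, PolA1 (383), CycA (221), PCNA and E2f1. Of 32 replication factors 5 did (PolA1, RfC3 with 233, Orc6 with 199, PCNA and RfC4) and of 20 core cell cycle genes 7 (Cdk2 with 298, polo with 279, CycA, Cdk4, Dp, E2f1 and Rbf). polo held no TATCGA, and PolA1, Cdk2 and CycA held TATCGATA. Of 63 genes of the basal transcription machinery 2 had one, Taf9 (316) and MED14 (120), and of 9 genes of mitochondrial DNA maintenance 2, mtSSB and mTTF (133). Among the lists of this paragraph, Wilson intervals lay above 8.08% for the DREF targets (23.7% to 76.3%) and the core cell cycle genes (18.1% to 56.7%), lists that share CycA and E2f1. Intervals that held 8.08% were those of replication factors (6.86% to 31.8%), basal transcription machinery (0.875% to 10.9%) and mitochondrial DNA maintenance (6.32% to 54.7%).

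Genes of embryonic patterning and neurogenesis had weak peaks without the DRE core. One of 8 Hox genes (abd-A), 4 of 23 paired-like homeobox genes (Gsc, Ptx1, gsb and otp), 2 of 13 head gap and retinal determination genes (btd and slp1) and 3 of 15 proneural and neuroblast genes (esg, insc and pros) had such a peak, 10 genes in all. Their signals ran from 42.2 to 112 with a median of 70.6, against 135 over all 1202. The lowest, 42.2, was the peak counted for insc, which lay equally near a start of sktl and cannot be assigned to either gene alone. GAGAG was present at 9 of the 10. That element was at 31.0% of all 1202. The DRE core, motif 1 and the homeodomain core were present at 0 of them, where their shares over the 1202 were 54.3%, 8.24% and 10.5%; for the last 2 a count of 0 in 10 is near those shares. Summits lay a median of 160 bp upstream. For each of the 4 lists the Wilson interval of its share of genes held the 8.08% of all coding genes with such a peak.

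Few of these patterning peaks were in the sets called from a single replicate. Replicate 1's own set held 2 of the 10 and replicate 2's own set 1, where they held 78.3% and 61.9% of all 1202. The 10 were also weak, and their presence in these sets was not compared with that of peaks of equal signal. abd-A, the Hox gene of the posterior abdomen, had signals of 37.6, 28.3 and 57.1 in replicate 1, replicate 2 and the conservative set. btd, a head gap gene, had 35.0, 38.8 and 80.9, Gsc, the fly goosecoid, had 38.2, 31.9 and 66.8, and slp1, a segmentation gene of the forkhead class, had 42.9, 34.3 and 66.9. otp had 36.1, 36.0 and 74.4. The higher ones were Ptx1 (66.7, 38.2 and 105), esg, which encodes a snail-type repressor (70.5 in replicate 1 and 112 in the conservative set), and pros, the homeodomain factor of neural precursors (34.1, 42.2 and 86.4), the one without GAGAG.

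Lists of terminal differentiation were empty. Of 70 cuticle protein genes, 119 odorant and gustatory receptor genes and 18 synaptic and neurotransmitter genes, 0 had such a peak, with Wilson upper limits of 5.20%, 3.13% and 17.6% beside the 8.08% of all coding genes. Any conservative summit within 500 bp of a start was found at 1, 0 and 0 of them.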

How the data were processed

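Peaks of 2 biological replicates of hbn-eGFP embryos were used as deposited. The labels name dm6 as the assembly. Which aligner and caller made the peaks is not given in the sources used here. The deposited signal is the authors' enrichment value per peak, on a scale that is not stated, the deposited score runs to 1000 with the IDR, and the ranked files hold the deposited −log10 of the IDR, whose smallest value in the conservative set was 2.00. The conservative set compares the replicates; 3592 of its 3595 entries lie on the arms. Each replicate's own set was called from that replicate alone, with 3274 and 2185 peaks on the arms. A replicate's signal is that of its ranked entry with the nearest summit within 100 bp. Tracks and alignments were not analysed here.

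Starts came from Ensembl release 115 gene models and sequence from RefSeq, both of the Release 6 assembly, and coordinates are 1-based. Both strands were searched for motifs up to 100 bp from the summit, and TATCGA lies inside TATCGATA, so their counts overlap. Of the 13 motifs, the longer ones and the DRE core were TATCGATA (the DRE), TATCGA (its core), GGTCACAC (motif 1), CATCNCTA with CAGCNCTA (motif 7) and GTATNTTT (motif 6). Shorter promoter elements were the Trl element GAGAG, the initiator core (TCAGT) and an E-box (CAGCTG), together with the box TATAAA. The forms that homeodomains bind were a palindrome (TAATTA), a variant of it (TAATTG) and the form of bicoid-type domains (TAATCC). Shares were compared between kinds of promoter peak by 2-sided Fisher's exact tests on numbers of peaks (scipy 1.17.1), with Benjamini-Hochberg adjustment within each family and a threshold of 0.05. Neighbouring peaks and genes are not independent, which makes these p-values approximate, and intervals cover counts of peaks or genes and no reads. Overlap of peaks means at least 1 bp. Single-gene starts without a peak are a comparison level, given with no test.

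The peaks, gene lists, motifs and comparisons were chosen with earlier results of these data known. Named genes are those of the 20 strongest peaks seen in each own set (summits up to 100 bp apart), the 5 strongest without TATCGA, the 5 strongest with GGTCACAC, up to 3 genes of each of 18 lists, those at the limits of the rule and the 3 weakest; other list genes are named where a list has 12 or fewer. The procedures were tested on simulated data.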

Additional observations from a re-analysis of the deposited data

How the results depend on the processing

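No paired analysis was possible because the replicates belong to 1 group. For 17 results, 122 values under alternatives were computed, and 95 were counted as unchanged. That meant a number of peaks of similar size, a share within the main interval, or an odds ratio on the same side of 1 and of the threshold. Odds ratios that crossed 1 with neither value called were also counted so. In replicate 2's own set these were GGTCACAC against downstream peaks (1.35 to 0.81) and signal against divergent peaks (0.93 to 1.15), among others. The number of peaks was 746 to 1101 in the own set of 1 replicate. With an IDR of 0.001 it was 721, the share with TATCGATA 36.8% and with TATCGA 73.9%. In the own sets these shares were 28.5% to 33.5% and 59.1% to 67.4%. With motif windows of 50 bp they were 20.7% and 45.9%, and with 200 bp TATCGA was 59.7%.

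The odds ratio of TATCGA against divergent peaks, 0.82, was 0.97 to 1.09 in the own sets, 1.07 at an IDR of 0.001 and 1.23 within 50 bp. It was 0.86 with an upstream limit of 250 bp (Fisher's exact adjusted p = 0.134), and 0.87 and 0.89 with divergent distances of 500 and 2000 bp (0.151 and 0.262). Against downstream peaks it stayed above 1 and called in each alternative run, from 1.59 with windows of 200 bp to 3.17 with 50 bp. GGTCACAC against divergent peaks was called only with windows of 200 bp (0.76, Fisher's exact adjusted p = 0.0474). For signal against divergent peaks the odds ratio was 1.39 at an IDR of 0.001 and 0.77 without peaks that overlap a stronger one, an alternative added after seeing the data, as were those for GAGAG and for odds ratios of the own sets. GAGAG against downstream peaks was 1.08 to 1.65 in the own sets and 1.14 with 200 bp. With summits within 100 bp, 73.8% and 58.4% of the peaks were shared with the own sets of replicates 1 and 2, and the odds ratios against divergent peaks were 0.89 and 0.98. The cause of these shifts was not tested.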
